A study of Mus musculus with 24 samples.

Results

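Pparg, Cd36 and 8 genes of lipid droplets and triglyceride turnover (Cidea, Cidec, Plin2, Plin4, Plin5, Mogat1, Fabp4 and Pnpla2) were followed across the liver of mice that lack IkkB, Shp2 or both. These 10 genes were taken by symbol from the 24319 genes of each deposited table, and all 10 were found in both tables. The 24 polyA RNA samples came from male mice of the C57/BL6 strain, 2 months old, and form 8 groups of 3 biological replicates, 4 groups of whole liver and 4 of isolated hepatocytes. IkkB KO mice are labelled Alb-Cre+;IkkBf/f, Shp2 KO mice Alb-Cre+;Shp2f/f and Double KO mice Alb-Cre+;IkkBf/f;Shp2f/f. WT mice are labelled wild type, with no Cre or floxed allele named, so Alb-Cre and the floxed alleles are present in every knockout group and named in no WT group. Alb-Cre is Cre recombinase under the albumin promoter, which is active in hepatocytes and their precursors, and whole liver also holds cells in which it is not active. IkkB, encoded by Ikbkb, is a kinase of the NF-κB pathway, and Shp2, encoded by Ptpn11, is a phosphatase that acts downstream of growth factor receptors.

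PPARγ, encoded by Pparg, is a nuclear receptor that binds DNA as a heterodimer with RXR and drives fat storage in adipocytes. In liver it is normally low, and it is known to rise in mouse models of fatty liver, where fatty acid uptake and lipid droplet genes are among its targets. A lipid droplet is a core of triglyceride under a coat of proteins. Perilipins and CIDE proteins sit on that coat, acyltransferases such as Mogat1 fill the core, and the lipase encoded by Pnpla2 empties it.

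Each table gives 1 value per gene and genotype, with no value per replicate, so no SD can be given and depth is unknown. The values are called FPKM here by the convention of the program, that is fragment numbers divided by transcript length and by the size of the library, which allows levels of different genes to be compared within a table. "Rose" and "fell" mark a q-value (adjusted p-value) under 0.05 in the authors' deposited table, which holds the only measure of replicate error available. Differences are given as log2(value + 1), which understates the change of genes with low values. Liver and hepatocyte tables were made separately, and levels set across them are side by side only. The deletions were visible in both tables. Liver Ikbkb was at 9.48 FPKM in IkkB KO and 6.31 in Double KO against 15.7 in WT, and liver Ptpn11 was at 4.09 in Shp2 KO and 6.09 in Double KO against 12.5 in WT. Hepatocyte Ikbkb was at 7.16 FPKM in IkkB KO and 5.29 in Double KO against 17.3 in WT, and hepatocyte Ptpn11 was at 4.46 in Shp2 KO and 5.77 in Double KO against 16.3 in WT.

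Loss of Shp2, alone or with IkkB, went with higher transcripts of most of these genes, and loss of IkkB alone moved few of them. In Shp2 KO liver 6 of the 9 tested genes rose, which were Pparg, Cd36, Cidec, Plin5, Mogat1 and Pnpla2, and 1 fell, which was Fabp4. The background in that comparison was 5.23% of 12588 tested genes higher and 4.10% lower. In Double KO liver 5 of 9 rose against WT (Pparg, Cd36, Cidec, Mogat1 and Pnpla2) and 0 fell, beside 11.5% higher and 6.62% lower of 12940 genes. IkkB KO liver had 0 of 9 higher and 1 lower, Mogat1, beside 2.37% higher and 2.17% lower of 12484 genes. The median difference of the tested genes was 1.31 in Shp2 KO, 0.92 in Double KO and -0.19 in IkkB KO liver, where the medians of all tested genes were -0.03, -0.03 and -0.01.

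In isolated hepatocytes, too, most calls were in the genotypes without Shp2. In Shp2 KO hepatocytes 5 of 9 tested genes rose (Pparg, Cd36, Plin4, Plin5 and Mogat1) and 0 fell, beside 7.13% higher and 4.53% lower of 12076 genes. In Double KO hepatocytes 5 of 9 rose (Pparg, Cd36, Cidec, Plin5 and Mogat1) and 0 fell, beside 9.04% higher and 4.56% lower of 12174 genes. In IkkB KO hepatocytes Cd36 alone rose of 8 tested genes and 0 fell, beside 7.60% higher and 1.81% lower of 12135 genes. The medians of the tested genes were 0.81 in Shp2 KO, 1.10 in Double KO and 0.22 in IkkB KO hepatocytes, against medians of -0.01, 0.01 and 0.00 over all tested genes. A gene near 0 in both genotypes is not tested, so a gene can enter the test through the genotype in which it is high. Cidea was tested in 0 of the 11 comparisons, and Mogat1 in 10.

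**Figure D1:**
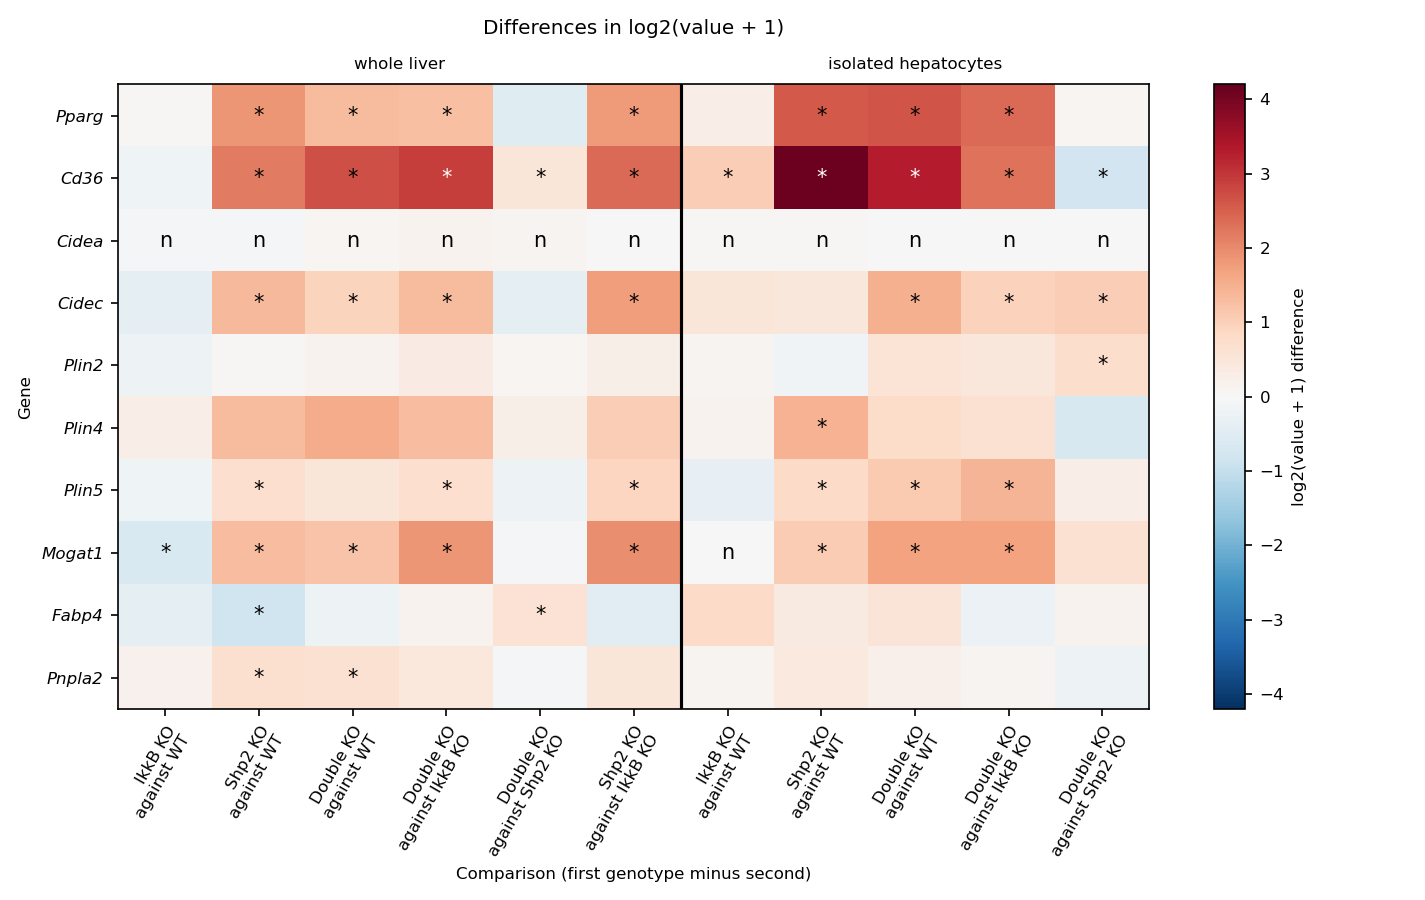
Differences in log2(value + 1) of the 10 genes (rows) in 11 comparisons (columns), first genotype minus second, with red for higher; a star marks q under 0.05 and n a gene that was not tested. Stars gather in the columns that set Shp2 KO or Double KO against WT or against IkkB KO.

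Between knockouts, most calls came where Shp2 KO or Double KO was set against IkkB KO. In liver, Double KO against IkkB KO had 5 of 9 tested genes higher and 0 lower, beside 11.5% higher and 7.50% lower of 12925 genes. Shp2 KO against IkkB KO in liver likewise had 5 of 9 higher and 0 lower, beside 5.43% higher and 4.84% lower of 12605 genes. In both, the 5 were Pparg, Cd36, Cidec, Plin5 and Mogat1. Double KO hepatocytes had 5 of 9 higher and 0 lower against IkkB KO hepatocytes, beside 5.75% higher and 5.62% lower of 12321 genes, again these 5. These comparisons share samples with each other and with those against WT, so they are not independent. Double KO against Shp2 KO had 2 of 9 higher and 0 lower in liver (Cd36 and Fabp4), beside 7.94% higher and 2.83% lower of 12878 genes. In hepatocytes the same comparison had 2 of 9 higher (Cidec and Plin2) and 1 lower (Cd36), beside 3.44% higher and 3.31% lower of 12250 genes. The hepatocyte table holds no pair of Shp2 KO and IkkB KO, so the 2 single knockouts were not tested against each other there.

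The 10 transcripts span a wide range of levels. In WT liver Plin2 was highest at 230.4 FPKM, followed by Pnpla2 at 41.6, Fabp4 at 29.2, Plin5 at 25.3, Cd36 at 4.85, Pparg at 4.12, Cidec at 3.09, Plin4 at 1.45, Mogat1 at 0.871 and Cidea at 0.0770. In WT hepatocytes Plin2 was again first at 263.8 FPKM and Cidea was listed at 0, with Pnpla2 at 37.9 and Plin5 at 28.6 next below Plin2. Cd36 changed place in this order with genotype. In Double KO liver it ranked 3 among the 10, at 37.3 FPKM, just above Plin5 at 36.4, whereas in WT liver it ranked 5. In Shp2 KO hepatocytes Cd36 ranked 2, at 55.9 FPKM, below Plin2 alone. With no replicate values, no spread can be set on the gaps between neighbours in these orders.

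**Figure D2:**
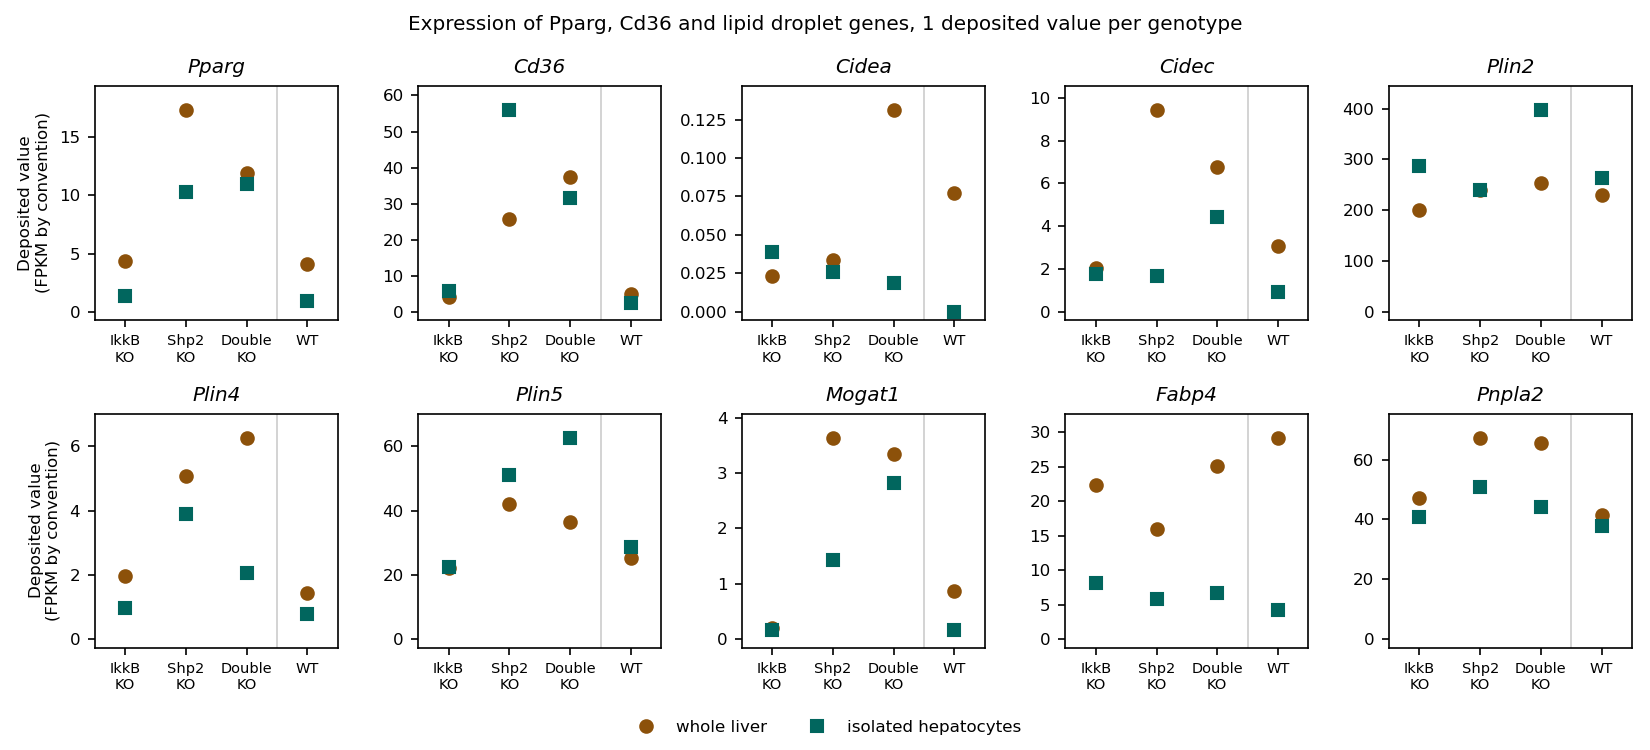
Deposited expression values (FPKM by convention, vertical axis, each panel with its own scale) of each gene in IkkB KO, Shp2 KO, Double KO and WT, with circles for whole liver and squares for isolated hepatocytes; each point is 1 value over 3 replicates, with no error bar because no replicate values are given. Shp2 KO and Double KO stand above IkkB KO and WT for Pparg, Cd36, Plin4, Plin5, Mogat1 and Pnpla2 in both tissues.

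Pparg, the receptor itself, was at 4.36 FPKM in IkkB KO, 17.3 in Shp2 KO and at 12.0 in Double KO liver, against 4.12 in WT liver. Hepatocyte Pparg was at 1.32 FPKM in IkkB KO, 10.3 in Shp2 KO and at 10.96 in Double KO, against 0.914 in WT. In both tissues the genotypes fell into a pair of high values and a pair of low ones. The log2 difference from WT was 1.84 in Shp2 KO and 1.34 in Double KO liver (q = 0.000955 for both in the authors' deposited table), and 2.56 and 2.64 in the same genotypes of hepatocytes (q = 0.00048 for both in the authors' deposited table). Within the pairs the q-values did not pass. Double KO liver was lower than Shp2 KO liver by a log2 difference of -0.50 with q = 0.053, and Double KO hepatocytes differed from Shp2 KO hepatocytes by 0.08 with q = 0.861, both from the authors' deposited table. For IkkB KO against WT the authors' deposited table gave q = 0.933 in liver and 0.421 in hepatocytes. Pparg is also expressed in macrophages, so whole-liver values mix cell types, and in bulk samples fewer cells of a type and less RNA per cell cannot be told apart.

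Cd36, a membrane receptor that takes up long-chain fatty acids, had the largest log2(value + 1) difference from WT of the 10 genes in Shp2 KO and Double KO of both tissues. It was at 4.15 FPKM in IkkB KO, 25.8 in Shp2 KO and at 37.3 in Double KO liver, against 4.85 in WT liver. In hepatocytes it was at 5.80 FPKM in IkkB KO, 55.9 in Shp2 KO and at 31.7 in Double KO, against 2.31 in WT. The ratio to WT was 24.2 in Shp2 KO hepatocytes and 13.7 in Double KO hepatocytes, and 5.31 and 7.69 in the same genotypes of liver. By ratio, which gives low genes more weight, Mogat1 was above Cd36 in Double KO hepatocytes, at 16.2. By log2 difference Cd36 ranked 16 of 12076 tested genes in Shp2 KO hepatocytes and 25 of 12588 in Shp2 KO liver. All 4 differences had the smallest q-value of their table, 0.00048 in hepatocytes and 0.000955 in liver in the authors' deposited table.

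Double KO against Shp2 KO gave opposite calls for Cd36 in the 2 tissues. Double KO liver was above Shp2 KO liver by a log2 difference of 0.52, with q = 0.0471 in the authors' deposited table. Double KO hepatocytes were below Shp2 KO hepatocytes, at -0.80 with q = 0.00354 in the authors' deposited table. The liver call was near the threshold and was lost with a q-value under 0.01 and when p-values were adjusted within that comparison alone. The difference between the tissues was not tested. Double KO and Shp2 KO liver did not differ in Ikbkb alone. Ptpn11 was higher in Double KO liver, at 6.09 against 4.09 FPKM (q = 0.0226 in the authors' deposited table). Of the 12 macrophage markers given below, 10 were higher and 0 lower in that liver comparison. In hepatocytes Ptpn11 did not pass between these genotypes (q = 0.213 in the authors' deposited table), and 2 macrophage markers were higher and 1 lower. IkkB deletion alone also gave unlike results, with a rise of Cd36 in hepatocytes (log2 difference 1.04, q = 0.00048) and q = 0.644 in liver, both from the authors' deposited table.

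Fabp4, a cytosolic fatty acid carrier typical of adipocytes, macrophages and capillary endothelium, did not follow Pparg. Liver Fabp4 was at 22.4 FPKM in IkkB KO, 16.0 in Shp2 KO and at 25.1 in Double KO, against 29.2 in WT. Hepatocyte Fabp4 was at 8.14 FPKM in IkkB KO, 5.92 in Shp2 KO and at 6.74 in Double KO, against 4.30 in WT. WT liver was the highest of the liver values and WT hepatocytes the lowest of the hepatocyte values. It fell in Shp2 KO liver (log2 difference -0.83, q = 0.00175 in the authors' deposited table) and was higher in Double KO than in Shp2 KO liver by 0.62, a call near the threshold with q = 0.048 in the authors' deposited table. That call too was lost with adjustment within the comparison. None of the hepatocyte comparisons passed for Fabp4, where q-values ran from 0.0654 to 0.814 in the authors' deposited table.

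Mogat1, which acylates monoacylglycerol to diacylglycerol, was a low transcript in every group and rose in both genotypes without Shp2. It was at 0.208 FPKM in IkkB KO, 3.63 in Shp2 KO and at 3.33 in Double KO liver, against 0.871 in WT. In hepatocytes it was at 0.173 FPKM in IkkB KO, 1.43 in Shp2 KO and at 2.81 in Double KO, against 0.173 in WT. The log2 difference from WT was 1.31 in Shp2 KO and 1.21 in Double KO liver, both with q = 0.000955 in the authors' deposited table. In hepatocytes it was 1.05 in Shp2 KO (q = 0.00527) and 1.70 in Double KO (q = 0.00127), both in the authors' deposited table. Mogat1 was the only one of the 10 genes that fell in IkkB KO liver, by 0.63 on the log2 scale with q = 0.0152 in the authors' deposited table, and this call did not pass when a value of at least 1 was required. Double KO did not differ from Shp2 KO past the threshold in either tissue (in the authors' deposited table, q = 0.907 in liver and 0.0729 in hepatocytes).

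The CIDE proteins enlarge lipid droplets by passing lipid from one to another. Cidec was at 2.07 FPKM in IkkB KO, 9.43 in Shp2 KO and at 6.77 in Double KO liver, against 3.09 in WT liver. Hepatocyte Cidec was at 1.75 FPKM in IkkB KO, 1.69 in Shp2 KO and at 4.44 in Double KO, against 0.942 in WT. Liver Cidec was thus high in both genotypes without Shp2, whereas in hepatocytes the Double KO value stood apart from the other 3. Its log2 difference from WT was 1.35 in Shp2 KO and 0.92 in Double KO liver (q = 0.000955 for both in the authors' deposited table). In hepatocytes the difference was 0.47 in Shp2 KO with q = 0.132 and 1.49 in Double KO with q = 0.00048, both from the authors' deposited table. Double KO against Shp2 KO gave 1.02 in hepatocytes with q = 0.00127 and -0.43 in liver with q = 0.155, again from the authors' deposited table. Cidea, a paralogue of Cidec typical of brown fat, ranged from 0.0231 to 0.131 FPKM in liver and from 0 to 0.0386 in hepatocytes and was too low to be tested.

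Among the perilipins, Plin5 rose with loss of Shp2, Plin4 was higher mostly without passing, and Plin2 passed in 1 comparison. Plin5, which ties droplets to mitochondria in oxidative tissues, was at 22.1 FPKM in IkkB KO, 42.2 in Shp2 KO and at 36.4 in Double KO liver, against 25.3 in WT. In hepatocytes Plin5 was at 22.5 FPKM in IkkB KO, 51.0 in Shp2 KO and at 62.6 in Double KO, against 28.6 in WT. The log2 difference from WT was 0.72 in Shp2 KO liver (q = 0.00248), 0.50 in Double KO liver (q = 0.0654), 0.81 in Shp2 KO hepatocytes (q = 0.00089) and 1.10 in Double KO hepatocytes (q = 0.00048) in the authors' deposited table. Double KO liver did not pass against WT, but Plin5 did pass there when p-values were adjusted within the comparison, and it passed against IkkB KO liver at 0.69 with q = 0.000955 in the authors' deposited table.

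Plin4, a perilipin of adipocytes, was at 1.98 FPKM in IkkB KO, 5.09 in Shp2 KO and at 6.26 in Double KO liver, against 1.45 in WT. Hepatocyte Plin4 was at 0.984 FPKM in IkkB KO, 3.88 in Shp2 KO and at 2.07 in Double KO, against 0.782 in WT. The ratio to WT was 3.52 in Shp2 KO liver and 4.32 in Double KO liver, yet q was 0.312 and 0.238 in the authors' deposited table. Ratios of this size passed for Mogat1, at 4.17 and 3.83 in the same comparisons, although its level was lower. Only Shp2 KO hepatocytes passed for Plin4, with a log2 difference of 1.45 and q = 0.0454 in the authors' deposited table, and that call was lost with adjustment within the comparison. Plin2, the perilipin that coats droplets in hepatocytes and was the most abundant of the 10, was at 199.8 FPKM in IkkB KO, 239.8 in Shp2 KO and at 252.8 in Double KO liver, against 230.4 in WT. Hepatocyte Plin2 was at 286.7 FPKM in IkkB KO, 239.4 in Shp2 KO and at 397.2 in Double KO, against 263.8 in WT. Its only call was Double KO against Shp2 KO hepatocytes, at 0.73 with q = 0.0106 in the authors' deposited table. The difference between Double KO and WT hepatocytes was 0.59 with q = 0.069 in the authors' deposited table.

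Pnpla2, adipose triglyceride lipase, takes the first fatty acid off stored triglyceride. It was at 47.3 FPKM in IkkB KO, 67.2 in Shp2 KO and at 65.4 in Double KO liver, against 41.6 in WT. Hepatocyte Pnpla2 was at 40.8 FPKM in IkkB KO, 51.0 in Shp2 KO and at 44.3 in Double KO, against 37.9 in WT. The liver genotypes without Shp2 lay above the other pair, and the hepatocyte values stood in the same order over a narrower range. Pnpla2 rose in liver, by a log2 difference of 0.68 in Shp2 KO (q = 0.00442) and 0.64 in Double KO (q = 0.00838) in the authors' deposited table. In hepatocytes the q-values against WT were 0.127 in Shp2 KO, 0.514 in Double KO and 0.806 in IkkB KO in the authors' deposited table.

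RefSeq promoter windows, from 250 bases before to 50 after an annotated start on GRCm38.p6, were found for 8 of the 10 genes, 12 windows in all; the windows carry no measurement of this study. The DR1 element bound by PPAR and RXR was searched on both strands as AGGTCA, any base and AGGTCA again, with up to 2 mismatches, and 3.86% of 32851 windows of 300 bases hold a match. Matches were found in 3 of the 12 windows, those of Cd36, Mogat1 and Plin2. CACGTG, an E-box, was in the Plin2 window and in 7.15% of all windows, and the AP-1 motif TGANTCA was in 1 window each of Cidec and Plin5 and in 7.81% of all windows. An NF-κB motif, GGGA, any base and TTTCC, was in none of the 12 and in 0.411% of all windows. A match is a run of letters and not a shown binding site, and a window without one says nothing about the factor. Windows of the 5 genes that rose in Double KO hepatocytes follow 5′ to 3′ on the strand of the gene, with motif matches in capitals. Cidec and Plin5 have 2 windows each, and only the window with a match is shown. They lie at chr5:17835847-17836146 on the minus strand for Cd36, chr1:78510810-78511109 on the plus strand for Mogat1, chr17:56117499-56117798 on the minus strand for Plin5 and chr6:113434715-113435014 on the minus strand for Cidec. Pparg has 3 windows on the plus strand, of which the most upstream (chr6:115360894-115361193, 80.3% G and C) and the most downstream (chr6:115421816-115422115, 40.3% G and C) are shown because the gene-level values do not separate transcripts from these starts.
Cd36: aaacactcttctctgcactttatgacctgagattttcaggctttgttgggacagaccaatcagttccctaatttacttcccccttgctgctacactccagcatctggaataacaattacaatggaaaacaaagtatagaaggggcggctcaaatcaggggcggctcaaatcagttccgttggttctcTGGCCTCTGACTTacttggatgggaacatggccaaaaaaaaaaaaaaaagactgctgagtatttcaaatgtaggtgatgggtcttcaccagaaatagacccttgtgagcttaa
Mogat1: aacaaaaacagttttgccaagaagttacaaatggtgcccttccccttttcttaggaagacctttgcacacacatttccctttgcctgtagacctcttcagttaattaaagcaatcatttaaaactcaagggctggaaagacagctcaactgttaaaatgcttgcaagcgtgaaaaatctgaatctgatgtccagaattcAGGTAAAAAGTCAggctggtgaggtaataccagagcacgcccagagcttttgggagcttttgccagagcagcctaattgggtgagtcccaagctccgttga
Plin5: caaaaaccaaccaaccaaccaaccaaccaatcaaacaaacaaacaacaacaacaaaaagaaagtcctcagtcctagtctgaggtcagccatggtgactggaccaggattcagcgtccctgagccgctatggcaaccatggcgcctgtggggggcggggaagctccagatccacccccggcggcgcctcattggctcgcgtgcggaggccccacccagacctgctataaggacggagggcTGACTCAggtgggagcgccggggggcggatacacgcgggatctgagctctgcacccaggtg
Cidec: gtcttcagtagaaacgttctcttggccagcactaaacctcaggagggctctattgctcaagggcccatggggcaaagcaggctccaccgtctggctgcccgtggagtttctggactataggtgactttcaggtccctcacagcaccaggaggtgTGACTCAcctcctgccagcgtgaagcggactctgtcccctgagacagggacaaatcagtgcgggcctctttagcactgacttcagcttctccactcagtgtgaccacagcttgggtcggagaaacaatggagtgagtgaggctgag
Pparg, upstream window: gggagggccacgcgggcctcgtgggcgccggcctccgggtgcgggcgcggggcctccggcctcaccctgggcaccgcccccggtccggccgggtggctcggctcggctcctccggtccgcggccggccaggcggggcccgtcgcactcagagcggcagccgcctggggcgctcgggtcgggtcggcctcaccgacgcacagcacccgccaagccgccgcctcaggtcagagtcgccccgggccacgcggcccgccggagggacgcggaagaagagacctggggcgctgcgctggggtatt
Pparg, downstream window: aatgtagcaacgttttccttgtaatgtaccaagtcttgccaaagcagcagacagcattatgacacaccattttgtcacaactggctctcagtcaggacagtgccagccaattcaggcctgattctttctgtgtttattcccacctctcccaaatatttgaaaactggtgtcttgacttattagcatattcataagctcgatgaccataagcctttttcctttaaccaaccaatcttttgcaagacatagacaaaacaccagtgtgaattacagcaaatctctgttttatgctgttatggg
In the Cd36 window the match TGGCCTCTGACTT begins 63 bases before the start and reads as the repeat on the opposite strand, and in the Mogat1 window AGGTAAAAAGTCA begins 51 bases before it, each with 2 mismatches. The AP-1 match begins 96 bases before the start for Cidec and 11 bases before it for Plin5. Plin4 and Plin5 are neighbours on chromosome 17, and are next to each other in RefSeq.

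Double KO differences from WT were then set beside the sum of the single differences. Without replicate values this has no test. Liver Cidec, Plin4 and Plin5 lay within 0.03 of the sum, with Double KO at 0.92, 1.57 and 0.50 and the sums at 0.93, 1.60 and 0.53. Liver Pparg was below its sum (1.34 in Double KO, sum 1.91) and liver Cd36 above it (2.71 in Double KO, sum 2.01). Hepatocyte Cd36 had the largest distance, at 3.30 in Double KO beside a sum of 5.14, a departure of -1.84. In the same cells Cidec, Plin2, Plin5 and Mogat1 lay above their sums by 0.51, 0.61, 0.63 and 0.65. Fabp4 departed by 0.99 in liver and by -0.63 in hepatocytes. Cd36, Fabp4, Cidec, Plin5 and Cidea thus departed in opposite directions in the 2 tissues, although for liver Plin5 the distance was only -0.02, and for liver Cidec it was -0.01 and turned to 0.09 with a pseudocount of 0.1.

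**Figure D3:**
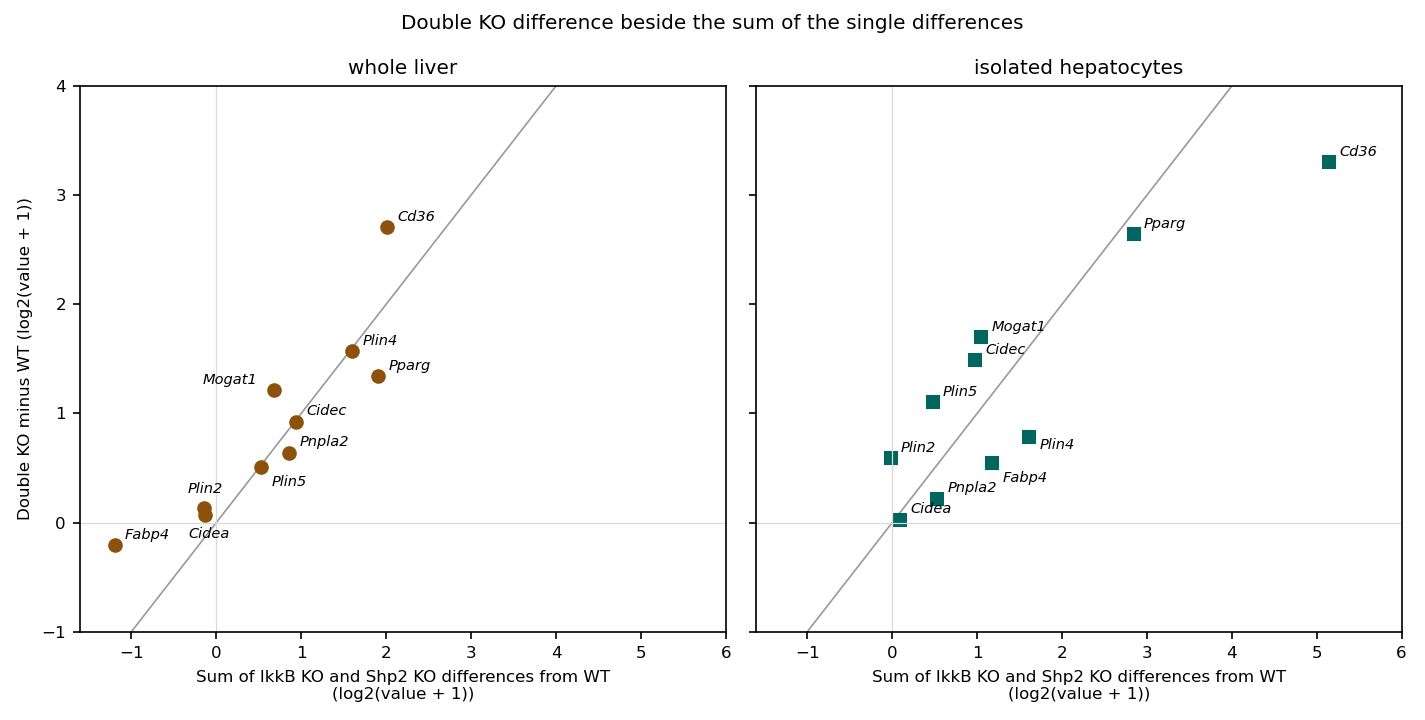
Log2(value + 1) difference of Double KO from WT (vertical axis) against the sum of the IkkB KO and Shp2 KO differences from WT (horizontal axis) for the 10 genes, in whole liver (left) and isolated hepatocytes (right); the line marks equal values. Cd36 lies above the line in liver, at 2.71 beside 2.01, and below it in hepatocytes, at 3.30 beside 5.14.

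Likeness among the genes was described by Pearson's r of log2(value + 1) over 8 values, 4 genotypes in each of 2 tables, centred within each table. The points share libraries between genes, so r carries no test. Pparg was most like Plin5 (r = 0.96), Cd36 (0.95) and Mogat1 (0.91). Plin4 was most like Pnpla2 (0.96) and Cd36 (0.95). Fabp4 had r between -0.35 and 0.22 with the other 8 genes that could be compared, and Plin2 had 0.76 with Cidec and less with the rest. Among 10628 genes at 1 FPKM or more in some genotype of each table, those outside the 10 most like Pparg were Csad (r = 0.99), an enzyme of taurine synthesis, Glrx2 (0.99), a mitochondrial glutaredoxin, and Acot2 (0.99), a mitochondrial acyl-CoA thioesterase. Csad was at 86.4 FPKM in IkkB KO, 749.3 in Shp2 KO and at 520.5 in Double KO liver, against 74.4 in WT, whereas Glrx2 stayed between 6.19 and 6.78 FPKM in liver, so a high r does not mean a like size of change. The genes most like Cd36 were Emp2 (0.99), Ubtd2 (0.99) and Slc5a1 (0.99), a sodium and glucose carrier. For Plin5 they were Car5b (0.99), Acot1 (0.99), a cytosolic acyl-CoA thioesterase, and Atox1 (0.99). For Mogat1 they were Sgpp1 (0.99), Nap1l1 (0.99) and Cmc2 (0.99), for Cidec Cald1 (0.99), Xpc (0.98) and Rab34 (0.98), and for Plin2 Bnip3l (0.98), Xk (0.96) and Ifrd2 (0.96). For Plin4 they were Cstb (0.99), Kiss1 (0.99) and Gyg (0.99), for Pnpla2 Slc25a15 (0.99), Ugt1a9 (0.99) and Gde1 (0.99), and for Fabp4 Nae1 (0.98), Mzt1 (0.97) and G3bp1 (0.97).

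Related genes of the same pathways did not move as one block. Of 12 tested triglyceride synthesis genes, 5 rose and 0 fell in Shp2 KO liver, 4 rose and 2 fell in Double KO liver, and 2 rose and 0 fell in IkkB KO liver. In hepatocytes 3 rose and 1 fell of 12 in Shp2 KO, 1 rose and 2 fell of 11 in Double KO, and 0 rose and 1 fell of 11 in IkkB KO. Over these 6 comparisons the shares of all tested genes ran from 2.37% to 11.5% higher and from 1.81% to 6.62% lower. Agpat9, an acyltransferase of the first step of glycerolipid synthesis, was at 0.897 FPKM in IkkB KO, 4.52 in Shp2 KO and at 6.51 in Double KO liver, against 0.612 in WT. In hepatocytes Agpat9 was at 1.25 FPKM in IkkB KO, 8.33 in Shp2 KO and at 5.65 in Double KO, against 1.15 in WT, and it rose in all 4 comparisons of Shp2 KO and Double KO with WT. Lpin1, a phosphatidate phosphatase, fell in Double KO liver, to 35.0 FPKM against 76.9 in WT, and in hepatocytes of Shp2 KO and Double KO, to 37.1 and 23.7 against 88.9 in WT. Dgat2, which makes triglyceride from diacylglycerol, also fell in Double KO liver, at 184.2 FPKM against 317.5 in WT, and in Double KO hepatocytes, at 164.3 against 308.8 in WT. Lpin2, of the same list as Lpin1, rose in all 3 knockouts of liver. It was at 56.9 FPKM in IkkB KO, 82.3 in Shp2 KO and at 69.0 in Double KO liver, against 36.2 in WT. Median differences of the list lay between -0.03 and 0.15 over the 6 comparisons with WT, where medians of all tested genes lay between -0.03 and 0.01.

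Called genes of fatty acid uptake and binding included rises and falls. In this list of 18, 2 rose and 2 fell of 17 tested in Shp2 KO liver, 4 rose and 4 fell of 17 in Double KO liver, and 3 rose and 3 fell of 17 in IkkB KO liver. In hepatocytes 4 rose and 3 fell of 16 in Shp2 KO, 4 rose and 1 fell of 17 in Double KO, and 1 rose and 0 fell of 16 in IkkB KO. Median differences of the list lay between -0.10 and 0.17. These counts were not tested against the shares of all tested genes. Some are near them, such as 1 of 16 higher in IkkB KO hepatocytes beside 7.60%. Lpl, the lipoprotein lipase that frees fatty acids from circulating triglyceride, was at 3.78 FPKM in IkkB KO, 7.09 in Shp2 KO and at 7.96 in Double KO hepatocytes, against 1.94 in WT, and rose in all 3. Fabp5, a fatty acid carrier, fell in all 3 knockouts of liver, at 50.9 FPKM in IkkB KO, 40.5 in Shp2 KO and at 30.8 in Double KO against 93.9 in WT. Fabp1, the main fatty acid carrier of hepatocytes, fell in Double KO liver, at 8436 FPKM against 26117 in WT liver, and in Shp2 KO hepatocytes, at 6814 against 13863 in WT. Fabp2 fell in Shp2 KO and Double KO liver, at 72.9 and 53.9 FPKM against 120.5 in WT. Fabp4, Fabp5, Fabp1 and Fabp2 thus fell in at least 1 knockout of liver. Fabp7, in contrast, rose in Double KO liver, at 8.74 FPKM against 3.89 in WT. Cav1, of the same list, rose in Shp2 KO liver, at 5.26 FPKM against 2.08 in WT. Cav1 also rose in Shp2 KO and Double KO hepatocytes, at 7.08 and 3.24 against 0.733 in WT.

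Among the other lipid droplet and lipolysis proteins, 3 rose and 1 fell of 14 tested in Shp2 KO liver, 1 rose and 2 fell of 14 in Double KO liver, and 0 rose and 2 fell of 14 in IkkB KO liver. In hepatocytes 1 rose and 2 fell of 14 in Shp2 KO, 1 rose and 0 fell of 14 in Double KO, and 0 rose and 1 fell of 15 in IkkB KO. No test sets these counts apart from the shares of all tested genes given above. Median differences of the list lay between -0.22 and 0.03. Fitm1, an endoplasmic reticulum protein of droplet formation, accounted for all the hepatocyte rises. It was at 8.29 FPKM in IkkB KO, 29.3 in Shp2 KO and at 57.5 in Double KO hepatocytes, against 10.7 in WT, and at 30.0 in IkkB KO, 147.5 in Shp2 KO and at 60.6 in Double KO liver, against 39.3 in WT. Double KO was thus the highest genotype in hepatocytes and Shp2 KO the highest in liver. Both the inhibitor and the activator of the Pnpla2 lipase were measured. G0s2, its inhibitor, rose in Shp2 KO liver, at 209.9 FPKM against 135.1 in WT, and fell in IkkB KO liver, at 78.9. In hepatocytes G0s2 fell in IkkB KO and Shp2 KO, at 114.0 and 112.6 FPKM against 210.8 in WT. Abhd5, its activator, fell in IkkB KO liver, at 9.57 FPKM against 16.7 in WT, and in Double KO liver, at 10.2 against the same WT value. Pnpla3, a relative of Pnpla2, fell in Shp2 KO liver, at 0.172 FPKM against 1.22 in WT, in Double KO liver, at 0.418, and in Shp2 KO hepatocytes, at 0.232 against 0.528 in WT.

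The receptors, partners and coregulators of PPARs were counted as well, and counts this small among 18 genes are not set apart from the shares of all tested genes given above. In liver 1 rose and 0 fell of 18 in Shp2 KO, 2 rose and 1 fell in Double KO, and 1 rose and 0 fell in IkkB KO. In hepatocytes 1 rose and 2 fell of 18 in Shp2 KO, 0 rose and 1 fell in Double KO, and 1 rose and 0 fell in IkkB KO. Srebf1, a driver of fatty acid synthesis, fell in Double KO liver, at 50.8 FPKM against 100.1 in WT, and in hepatocytes of Shp2 KO and Double KO, at 69.8 and 43.2 against 111.0 in WT. Ppargc1a, a coactivator of PPARs, rose in Shp2 KO and Double KO liver, at 1.63 and 2.53 FPKM against 0.948 in WT. In hepatocytes Ppargc1a was at 3.72 FPKM in Shp2 KO and at 1.82 in Double KO, against 2.72 in WT, and neither was called. Rxra, the main RXR of liver, and Ppara, named after their values were seen, did not pass against WT in either tissue, with q-values from 0.315 to 0.957 in the authors' deposited table. Further PPARγ targets of fat cells had 2 higher and 1 lower of 7 tested in Shp2 KO liver, 1 higher and 0 lower of 6 in Double KO liver, and 0 of 6 called in IkkB KO liver. Each knockout of hepatocytes had 1 higher and 0 lower of 4 tested. These counts too are not set apart from the shares of all tested genes. Gyk, glycerol kinase, rose in Shp2 KO and Double KO liver, at 25.4 and 27.9 FPKM against 17.5 in WT, and in Double KO hepatocytes, at 31.6 against 20.6 in WT.

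**Figure D4:**
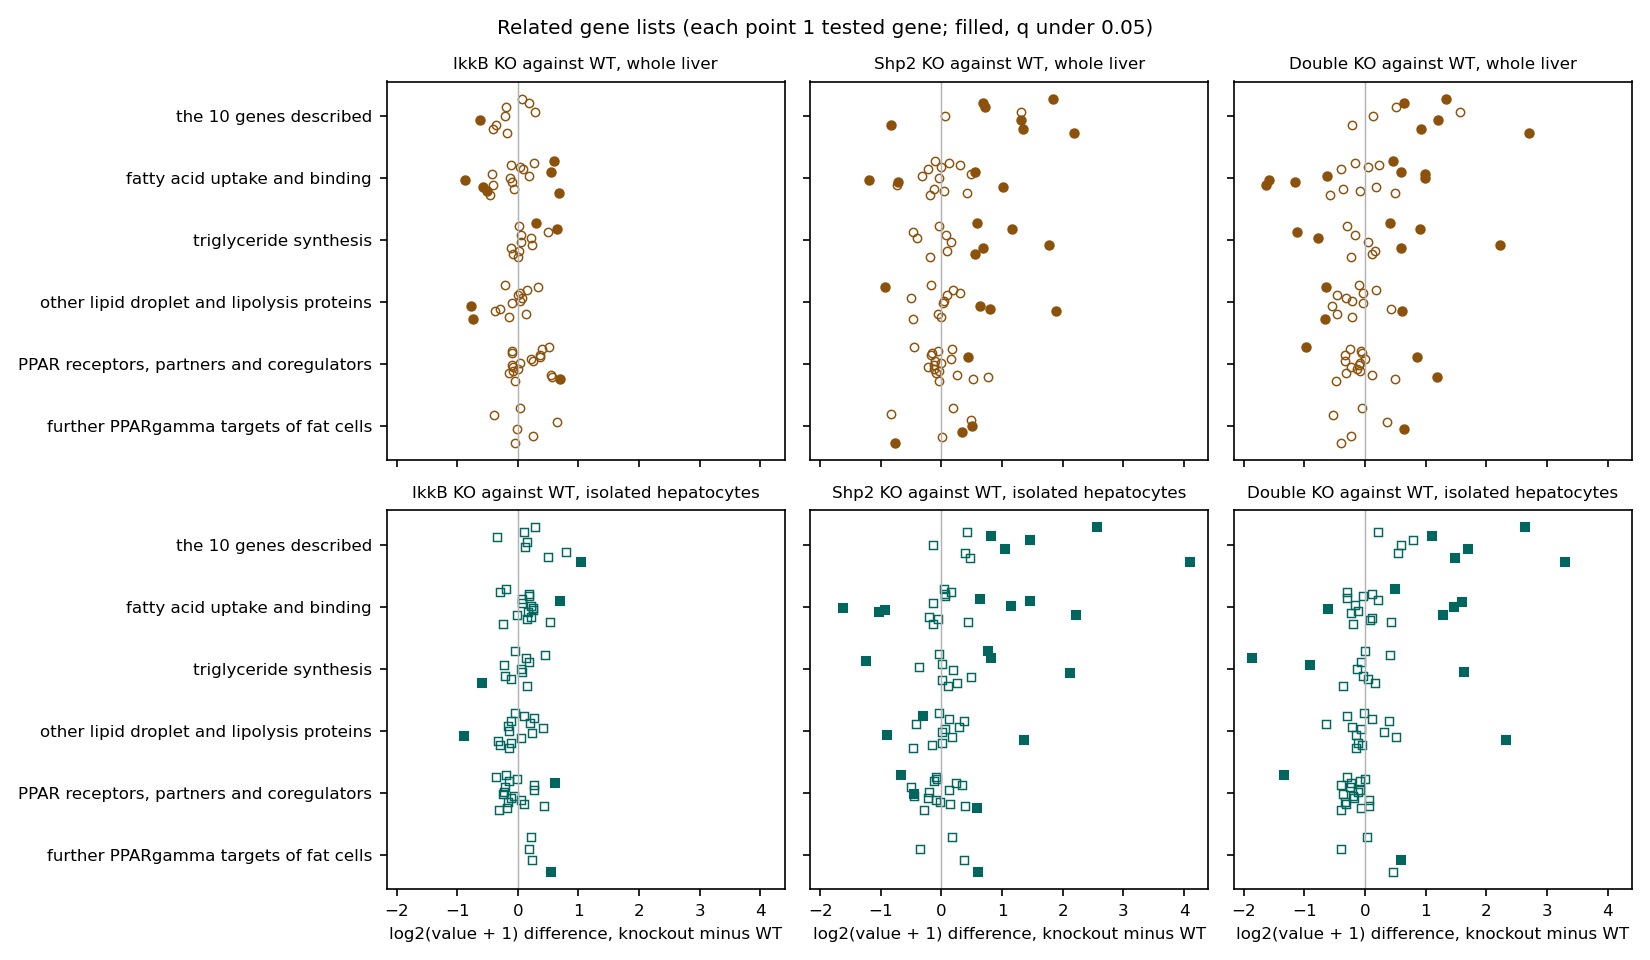
Log2(value + 1) differences from WT (horizontal axis) of each tested gene in the 10 genes described and in 5 related lists (rows), for IkkB KO, Shp2 KO and Double KO in whole liver (top) and isolated hepatocytes (bottom); filled points have q under 0.05. Calls of the related lists stand on both sides of 0, and the 10 genes described lie mostly to the right in Shp2 KO and Double KO.

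Transcripts of other cell types moved across the same groups. The summed level of 12 macrophage markers was 371.0 FPKM in IkkB KO, 390.8 in Shp2 KO, with 787.1 in Double KO liver, against 282.9 in WT, with 2, 4 and 12 of 12 markers higher in the 3 knockouts. In hepatocyte preparations the same sum was 332.9 in IkkB KO, 275.2 in Shp2 KO, with 351.6 in Double KO, against 113.2 in WT, and 12, 11 and 12 of 12 were higher. The hepatocyte preparations thus held more macrophage transcript in every knockout. In IkkB KO hepatocytes Pparg was at 1.32 FPKM against 0.914 in WT and did not pass, and Cd36 was at 5.80 against 2.31 and did pass. The part of macrophages in either value was not tested. The summed level of 11 endothelial markers was 99.99 FPKM in IkkB KO, 76.4 in Shp2 KO, with 103.8 in Double KO liver, against 102.5 in WT, and 3 of 11 fell in Shp2 KO liver. In hepatocytes it was 88.0 in IkkB KO, 49.6 in Shp2 KO, with 79.6 in Double KO, against 44.5 in WT, with 7 of 10, 0 of 10 and 8 of 11 tested markers higher. Stellate cell markers, 10 in number, summed to 118.7 FPKM in IkkB KO, 57.7 in Shp2 KO, with 66.2 in Double KO hepatocytes, against 30.2 in WT, and to 91.6, 105.8 and 186.0 in the same genotypes of liver, against 91.2 in WT. In hepatocytes 9 of 9, 4 of 9 and 8 of 10 tested stellate markers were higher. In liver 0 rose and 2 fell of 10 in IkkB KO, 1 rose and 1 fell in Shp2 KO, and 6 rose and 0 fell in Double KO. Much of these sums was Dcn, at 84.8 FPKM in IkkB KO hepatocytes and 20.6 in WT hepatocytes.

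Fabp4, known from endothelial cells, macrophages and fat cells, can be set beside these sums. In hepatocytes its value was highest in IkkB KO, then Double KO, Shp2 KO and WT, but no hepatocyte comparison passed for Fabp4. The endothelial and stellate cell sums stood in the same order, and the macrophage sum was highest in Double KO. Neither the order nor its likeness to these sums was tested. In liver Fabp4 was lowest in Shp2 KO, as was the endothelial sum, whereas the macrophage sum was lowest in WT, where Fabp4 was highest. The stellate cell sum was nearly equal in WT and IkkB KO liver, at 91.2 and 91.6 FPKM, of which Dcn alone was 54.0 and 63.4. Fat cell transcripts did not share 1 order in liver. Lipe, hormone-sensitive lipase, was highest in Shp2 KO, at 8.66 FPKM against 8.10 in WT, and Adrb3, a receptor of adipocytes, was at 4.73 in IkkB KO, 3.06 in Shp2 KO and at 0.839 in Double KO liver, against 5.31 in WT. Adipoq, an adipocyte hormone, was at 0.737 FPKM in IkkB KO, 0.0530 in Shp2 KO and at 0.354 in Double KO liver, against 0.786 in WT, and Cfd at 3.12, 0.765 and 2.28 in the same knockouts, against 3.85 in WT. Retn was at 0.486, 0.101 and 0.361 in these knockouts, against 0.960 in WT, and liver Plin1 at 0.0555, 0 and 0.116, against 0.137. Adipoq, Cfd, Retn and Plin1 were thus highest in WT and lowest in Shp2 KO liver, as was Fabp4. Lipe and Adrb3 were lowest in Double KO liver instead. Adipoq and Cfd fell in Shp2 KO liver, and Adrb3 in Shp2 KO and Double KO liver. In hepatocytes Adipoq was at most 0.0286 FPKM, Lep was listed at 0 in all 4 genotypes and Plin1, the perilipin of fat cells, was listed at 0 in the knockouts and at 0.00833 in WT. Adrb3 fell in all 3 knockouts of hepatocytes, at 1.38 FPKM in IkkB KO, 0.940 in Shp2 KO, 0.650 in Double KO and 2.73 in WT. None of the 7 fat cell markers rose against WT in either tissue, where 5 were tested in liver and 2 or 3 in hepatocytes. Their sum was 17.2 in IkkB KO, 12.6 in Shp2 KO, with 9.55 in Double KO liver, against 19.2 in WT. Most of the WT sum was Lipe and Adrb3, at 8.10 and 5.31 FPKM, so it follows these more than the other fat cell markers. The part of these other cells in the values of Fabp4, Cd36 and Pparg was not tested. Hepatocyte markers of 7 genes that were not too abundant for the program summed to 23311 FPKM in IkkB KO, 14954 in Shp2 KO, with 12401 in Double KO liver, against 20655 in WT. Most of that sum was Ttr and Apoc3, at 9726 and 7858 FPKM in WT liver. Tat went the other way, at 937.4 in Double KO liver against 658.5 in WT. Of 7 tested markers 0 rose in any liver knockout, and 1 fell, Apoc3 in Double KO. In the hepatocyte preparations the same 7 markers summed to 19276, 13706 and 16147 in the same knockouts, against 19889 in WT. There 0 tested hepatocyte markers rose in any knockout, and 1 fell, Apoa1 in Shp2 KO, which is not in the sum.

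**Figure D5:**
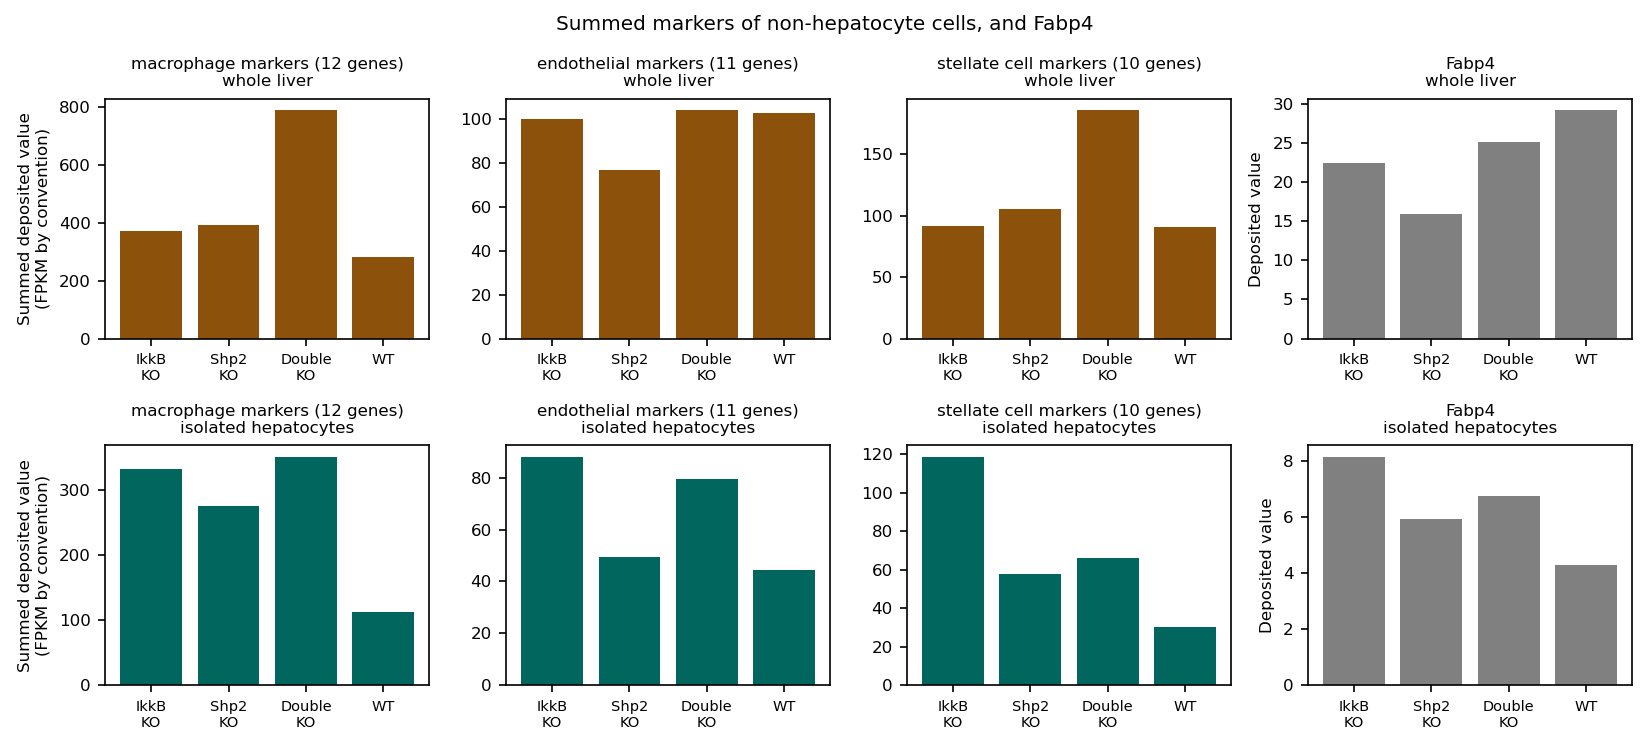
Summed deposited values (FPKM by convention, bars from 0) of macrophage, endothelial and stellate cell markers, and the value of Fabp4 (right), in IkkB KO, Shp2 KO, Double KO and WT, for whole liver (top) and isolated hepatocytes (bottom). In hepatocyte preparations the macrophage sum and Fabp4 are both lowest in WT, at 113.2 and 4.30, whereas in liver the macrophage sum is lowest in WT, at 282.9, and Fabp4 is highest there, at 29.2.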

How the data were processed

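PolyA RNA libraries were made with the Illumina TruSeq v2 kit, after extraction with one RNeasy kit for liver and another for hepatocytes, per the labels' protocols. Per the submitters' processing notes, FastQC, Cuffdiff and the build mm9 were used. The sources used here name no aligner, annotation or version. The authors deposited 1 table per tissue, with 6 pairs of genotypes for liver and 5 for hepatocytes. Their expression values are in a unit the headers do not name, taken as FPKM by Cuffdiff's convention. Log2 fold changes, p-values and q-values are the authors' own, per the file headers, and the deposited test statistic, a score, was not used. Tables hold 0 columns per sample.

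A gene was called at a q-value under 0.05 where Cuffdiff tested it and 1 of the 2 genotypes had at least 0.1. Differences were computed as log2(value + 1) with Python 3.11.15, numpy 2.4.6, pandas 2.3.3 and matplotlib 3.10.9, and the steps were tested on simulated data. All 10 genes were named, with the 3 genes most like each. Genes of the related lists were drawn from up to 3 called genes per list and comparison with WT, those with the smallest q-values. Not all of these are named. Some are also given in comparisons where they were not among the 3, such as Dgat2 and Fabp7 in Double KO liver. The genes and lists were chosen with earlier results of these data known. Where reads could be shared with similar genes, values are uncertain. Some genes, such as Alb, are listed at 0 because they were too abundant for the program.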

Additional observations from a re-analysis of the deposited data

How the results depend on the processing

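The number of the 10 genes called stayed within 1.5 times of the reported one in most settings. With a q-value under 0.01, 0 instead of 1 passed in IkkB KO against WT liver and 0 instead of 2 in Double KO against Shp2 KO liver. With adjustment of the p-values within a comparison, 0 instead of 2 passed in Double KO against Shp2 KO liver (Cd36 and Fabp4 lost), 6 instead of 5 in Double KO against WT liver (Plin5 gained) and 4 instead of 5 in Shp2 KO against WT hepatocytes (Plin4 lost). With a minimum log2 difference of 1, 0 instead of 1 passed in IkkB KO against WT liver, 4 instead of 7 in Shp2 KO against WT liver, 3 instead of 5 in Double KO against WT liver, 0 instead of 2 in Double KO against Shp2 KO liver and 1 instead of 3 in Double KO against Shp2 KO hepatocytes. With a value of at least 1 required, 0 instead of 1 passed in IkkB KO against WT liver (Mogat1). Leaving out the filter on low values changed no count. No log2 difference of the 10 genes changed sign with a pseudocount of 0.1 (110 differences), with centring on the median (110) or, chosen after the data were seen, with the authors' deposited log2 fold change (107). With a pseudocount of 0.1, 6 departures from the sum moved by more than 1.5 times or turned sign, and 14 did not. Those that moved include liver Cidec, which turned to 0.09, and liver Mogat1, which grew to 1.54. With centring on the median, 1 departure moved and 19 did not. With a q-value under 0.01, 18 counts of the related lists moved by more than 1.5 times or to 0, and 37 did not. No paired analysis was possible because the tables hold no value per replicate, and for the same reason leaving out each replicate was not run. Depth is unknown, so the limit it sets on low transcripts such as Cidea cannot be given.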
